A study of Homo sapiens with 4 samples.

Results

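The guide strands of the miR-15/16 family were examined in HepG2 cells, an established human hepatocellular carcinoma line, after short exposure to berberine. The members were taken by name as hsa-miR-15a, hsa-miR-15b, hsa-miR-16, hsa-miR-195, hsa-miR-424, hsa-miR-497 and hsa-miR-503 (written below without the species prefix), which are 7 of the 851 human miRNAs on the array. The rule used names and no measured level. Cells received 40 µM berberine chloride, a plant alkaloid dissolved in DMSO, or 0.08% DMSO alone (control), and RNA was extracted at 2 h or 4 h. A single Agilent human miRNA array was run for each of the 4 conditions, so there was no replicate of any condition, and all groups came from the same cell line. No test can be made at a single time with 1 array per condition. The error given below for a signal or a ratio is the scanner software's own and does not include the spread between cultures. All 4 arrays lay on 1 slide and were read in 1 scan.

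A miRNA is cut from a hairpin precursor, and the guide strand is the arm that is loaded into Argonaute, while the other arm, written with a star in the older nomenclature, is mostly lost. The loaded strand finds target mRNAs mainly by pairing through its seed, the bases near its 5′ end, and lowers their stability and translation. The miR-15/16 family is known for targets that drive the cell cycle and survival, such as the cyclins D1 and E1 and BCL2, and its gene pair on chromosome 13 is often lost in chronic lymphocytic leukaemia.

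The mature sequences are shown because the seed defines the family and because 2 of its members are nearly alike. They were taken from RefSeq on GRCh38.p14, where 7 of the 7 members were matched, and capitals mark the seed, bases 2 to 8. The first 6 share the seed AGCAGCA, and miR-503 differs from them in the last base of its seed.
miR-15a: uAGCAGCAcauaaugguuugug
miR-15b: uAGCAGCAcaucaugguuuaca
miR-16: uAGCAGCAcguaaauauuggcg
miR-195: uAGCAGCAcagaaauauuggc
miR-497: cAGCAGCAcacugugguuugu
miR-424: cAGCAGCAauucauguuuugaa
miR-503: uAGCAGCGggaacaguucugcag
miR-103: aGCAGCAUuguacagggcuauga
miR-107: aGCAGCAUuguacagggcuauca

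The last 2 sequences, miR-103 and miR-107, lie outside the family and are shown for comparison, since they carry the letters AGCAGCA from their first base and not from their second. Over the whole strand the members differ to unlike degrees. The sequences of miR-15a and miR-15b are alike at 18 of 22 positions, those of miR-15a and miR-16 at 16 of 22, and those of miR-424 and miR-503 at 12 of 22. The closest pair is miR-16 and miR-195, alike at 19 of 21 positions and different only at positions 10 and 11, counted from the 5′ end.

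The 7 guide strands come from 4 pairs of neighbouring hairpins, and miR-16 is made from a pair of loci. The guide strand of miR-15a lies at chr13:50049167-50049188 and 1 copy of miR-16 at chr13:50049027-50049048, both on the minus strand within the long non-coding gene DLEU2, with 57 bases between their hairpins. The guide strand of miR-15b lies at chr3:160404607-160404628 and the other copy of miR-16 at chr3:160404754-160404775, both on the plus strand within SMC4, a condensin gene, with 59 bases between the hairpins. The miR-195 strand at chr17:7017667-7017687 and the miR-497 strand at chr17:7017979-7017999 are on the minus strand within the host gene MIR497HG. The miR-424 strand at chrX:134546680-134546701 and the miR-503 strand at chrX:134546371-134546393 are on the minus strand as well, the latter within MIR503HG. Both copies of miR-16 give the same guide strand, so the array cannot tell their products apart.

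The question put to the arrays was whether berberine moved these miRNAs at 2 h or 4 h. Of the 7 members, miR-15a, miR-15b and miR-16 were detected on all 4 arrays, miR-195 was detected on some, and miR-424, miR-497 and miR-503 were detected on none. Over all human miRNAs, 197 of 851 (23.1%) were detected on all 4 arrays. Thus the members of the DLEU2 and SMC4 pairs gave measurable signal, and those of the pairs on chromosomes 17 and X gave little or none. A miRNA is called detected by the scanner software where at least 1 of its probes exceeds 3 times that probe's error. Feature intensities were summed by the software into a total signal for each miRNA, and these unscaled signals are in arbitrary units.

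The cells carried the liver and HepG2 miRNAs that were examined, but also miRNAs examined for fibroblasts and smooth muscle, so detection alone does not identify a tissue. The 6 liver and HepG2 miRNAs examined were detected on all 4 arrays, and miR-122, the miRNA that defines hepatocytes, was at 31.5 on the control and 22.4 on the berberine array at 2 h, and at 30.1 and 39.9 at 4 h. The miRNAs of neurons, muscle and endothelium that were examined were detected on no array. Of the 3 miRNAs of blood, miR-142-3p and miR-451 were detected on the berberine 4 h array alone, at 6.13 and 5.31, and miR-223 on none. Of the 3 miRNAs of fibroblasts and smooth muscle, miR-145 and miR-199a-3p were detected on all 4 arrays, and miR-143 on the berberine 4 h array alone, at 3.95. Their summed signal was 50.9 and 33.1 at 2 h and 50.0 and 74.7 at 4 h, control first, with the highest signal from miR-145, at 30.8, 19.7, 29.9 and 42.3 in the same order. The summed signal of the liver list was 3075 and 2089 at 2 h and 2566 and 3870 at 4 h, with the highest signal from miR-192, and that of the family was 1255 and 848, then 1125 and 1605. Signals of different miRNAs depend on their probes and were not compared as levels. Whether RNA from other cells had a part in the family's values was not tested.

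miR-15a, encoded beside miR-16 in DLEU2, gave a total signal of 146 ± 10.7 on the control and 101 ± 7.68 on the berberine array at 2 h, and of 130 ± 9.69 and 183 ± 13.4 at 4 h (± signal error). miR-15b, encoded in SMC4, gave 423 ± 30.2 and 305 ± 21.8 at 2 h, and 393 ± 27.9 and 561 ± 39.9 at 4 h. miR-16, the product of both loci, gave 681 ± 50.4 and 442 ± 32.6 at 2 h, and 602 ± 44.5 and 857 ± 63.1 at 4 h. All 3 were lowest on the berberine 2 h array and highest on the berberine 4 h array, with the controls between. The arrays themselves fell in the same order: their 75th percentile of signal, taken over the 197 miRNAs detected on all of them, was 243 and 169 at 2 h and 225 and 297 at 4 h. The same order was seen in 147 of the 197 miRNAs (74.6%), so the order of the unscaled signals of the 3 members was that of most miRNAs.

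**Figure D1:**
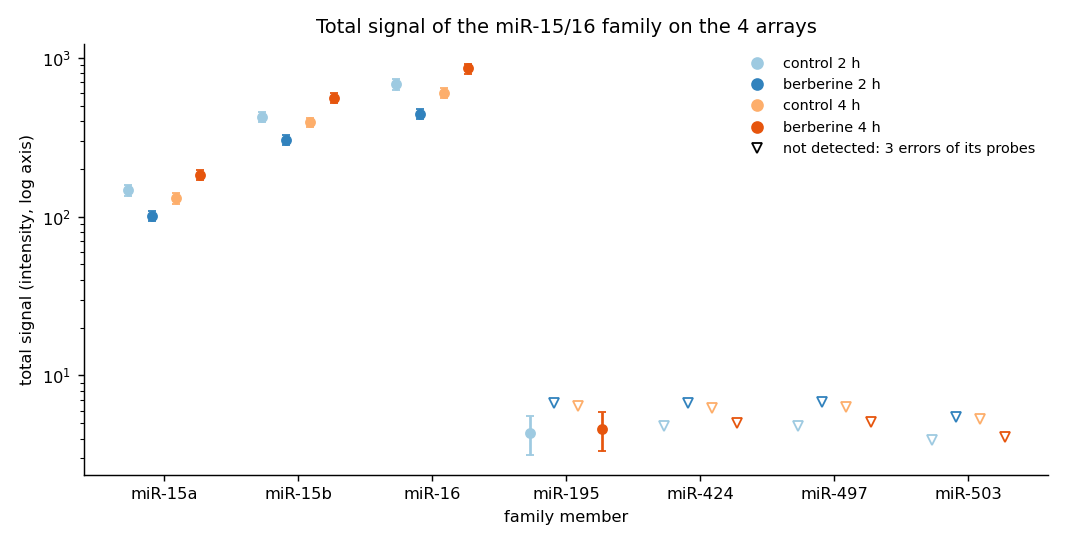
Unscaled total signal (arbitrary units, logarithmic axis) of the members on each of the 4 arrays, with error bars of 1 signal error and downward triangles at 3 errors summed over a member's probes where it was not detected, a guide to the noise and not the rule of detection, which is applied to single probes. Each member has its own place on the horizontal axis and each array its own colour. The points of miR-15a, miR-15b and miR-16 are lowest for the berberine 2 h array and highest for the berberine 4 h array, and miR-195 was detected at 4.34 and 4.62 on 2 arrays.

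To set arrays against each other, each log2 signal was taken minus the 75th percentile of its array. On this scale miR-15a was at -0.73 without and -0.74 with berberine at 2 h, and at -0.79 and -0.70 at 4 h. miR-15b was at 0.80 and 0.85, then 0.80 and 0.92. miR-16 was at 1.48 and 1.39, then 1.42 and 1.53. On this scale the whole spread of each member over the 4 arrays was smaller than the error of a single ratio. This did not hold with arrays scaled to their median signal, where the log2 ratio of miR-15b between the controls alone was 0.21 (SE 0.15). In a bulk RNA sample, fewer cells with a miRNA and less of it per cell cannot be told apart.

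At 2 h the log2 ratio of berberine over control was -0.01 for miR-15a (SE 0.15; 0.995-fold), 0.05 for miR-15b (SE 0.15; 1.04-fold) and -0.10 for miR-16 (SE 0.15; 0.935-fold). The 95% range of each, set from its own error, included 0. That error is close to a fixed share of the signal. Every probe of the 3 members stood at 9.26 to 9.99 of its errors on every array. The spots of a probe varied by only 0.953% to 8.27% (SD over mean). The ranges of the 3 members thus had nearly the same width whatever their spots showed. Of the 3 members, 0 passed a 2-fold difference, against 1.02% of the 197 miRNAs with a ratio at this time. A 95% range that left out 0 was found in 0 of 3 members and 9.14% of all. The 95% ranges reached from -0.31 to 0.29 for miR-15a, from -0.24 to 0.34 for miR-15b and from -0.39 to 0.20 for miR-16. By the software's error, a change within those limits could not be told from 0. The median ratio of the 3 members was -0.01, beside -0.02 for all 197 miRNAs. With normexp, another background correction, the members' median minus that of all miRNAs was -0.20. Without scaling the fold values were 0.692, 0.720 and 0.650 for miR-15a, miR-15b and miR-16, and the unscaled median over all 197 miRNAs was as low, at -0.55 on the log2 scale beside -0.53 for the members.

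At 4 h the log2 ratio was 0.09 for miR-15a (SE 0.15; 1.06-fold), 0.12 for miR-15b (SE 0.15; 1.08-fold) and 0.11 for miR-16 (SE 0.15; 1.08-fold). The 3 values lay above 0, as did the median of 0.11 over all 218 miRNAs with a ratio at this time. Relative to that median the members' own median of 0.11 differed by 0.00, but by 0.24 with normexp. The members' median was on the other side of 0, at -0.06, with arrays scaled to their median signal and, at -0.01, with the brightest probe alone. Past 2-fold were 0 of 3 members and 0.917% of all, and the 95% range left out 0 in 0 of 3 members and 11.5% of all. The 95% ranges were -0.20 to 0.39 for miR-15a, -0.17 to 0.40 for miR-15b and -0.18 to 0.41 for miR-16. The 3 ratios lay within 0.025 of each other, a range far smaller than their errors.

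**Figure D2:**
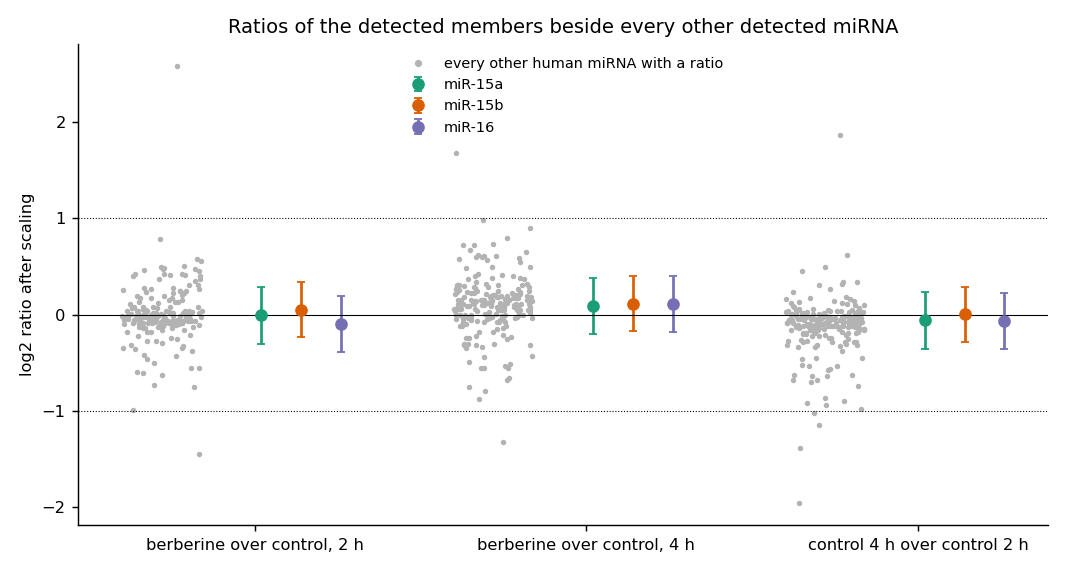
Log2 ratios of the 3 detected members for berberine over control at 2 h and at 4 h and for control 4 h over control 2 h, with bars of the 95% range, beside grey points for every other miRNA with a ratio and dotted lines at a 2-fold difference. Every bar of a member crosses 0, and the members' medians of -0.01, 0.11 and -0.06 lie near those of all miRNAs.

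The control arrays at 4 h and 2 h differ in time and not in treatment, and show how far 2 untreated arrays stand apart. Their log2 ratio was -0.06 for miR-15a, 0.00 for miR-15b and -0.07 for miR-16, each with an SE of 0.15, and with median scaling the median of the 3 was 0.15 in place of -0.06. Past 2-fold were 0 of 3 members against 2.28% of all, and the 95% range left out 0 in 0 of 3 against 6.85% of all. No member's berberine ratio at either time was larger than the error carried by its ratio between controls.

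The change in the berberine ratio from 2 h to 4 h, which uses all 4 arrays, was 0.10 for miR-15a (SE 0.21), 0.06 for miR-15b (SE 0.21) and 0.21 for miR-16 (SE 0.21) on the log2 scale. The ratios of miR-15a and miR-16 had opposite signs at the 2 times, as had those of 133 of the 197 miRNAs (67.5%, but 59.4% with median scaling, 46.7% with quantile normalization and 92.9% without scaling). That of miR-15b was above 0 at both. These signs turned with the processing: with median scaling miR-15a (-0.02 and -0.08) and miR-16 (-0.11 and -0.06) were below 0 at both times and miR-15b was at 0.04 and -0.06. With quantile normalization miR-15a was above 0 at both (0.04 and 0.02), miR-16 below 0 at both (-0.05 and -0.07), and miR-15b was at -0.14 and 0.06.

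Both times were then fitted in 1 limma model, with treatment and time point as terms, over the 197 miRNAs. The log2 difference of berberine from control was 0.04 for miR-15a (SE 0.21), 0.08 for miR-15b (SE 0.21) and 0.01 for miR-16 (SE 0.21), each with an adjusted p of 0.997 in limma. At this scaling miR-15b was higher with berberine at 2 of 2 times, and miR-15a and miR-16 at 1 of 2, which also turned as described. The limma test called 0 of 3 members at an adjusted p under 0.05, beside 0.508% of all miRNAs, and 0 of 3 at an unadjusted p under 0.05, beside 4.57%. The 95% ranges ran from -0.36 to 0.45 for miR-15a, from -0.32 to 0.49 for miR-15b and from -0.40 to 0.41 for miR-16. Their width belongs to this scaling. The SE of miR-16 in limma was 0.084 with median scaling, 0.067 with the brightest probe and 0.024 with quantile normalization. Without scaling it was 0.57. The fit has 1 residual degree of freedom from the arrays and takes the rest of its spread from the other miRNAs. That degree of freedom is the difference between the berberine ratios at 2 h and 4 h. A response that differs between the times therefore counts as spread.

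A ratio between 2 members on the same array is free of any scaling by 1 constant per array. Relative to miR-16, the berberine ratio was 0.09 higher for miR-15a (SE 0.21) and 0.15 higher for miR-15b (SE 0.21) at 2 h. At 4 h the same differences were -0.02 and 0.00. With quantile normalization, which is not a constant, the difference of miR-15b turned to -0.09 at 2 h and was 0.13 at 4 h. That of miR-15a was 0.09 at both times, a turn of sign at 4 h. With normexp the difference of miR-15a was 0.22 at 2 h and -0.15 at 4 h, and that of miR-15b was 0.14 and -0.04. miR-15a, which shares a locus with 1 copy of miR-16, and miR-15b, which shares a locus with the other, differed from each other by -0.06 at 2 h (95% range -0.47 to 0.36) and by -0.02 at 4 h (95% range -0.43 to 0.39). At 2 h this difference turned to 0.18 with quantile normalization and 0.08 with normexp. The products of the loci on chromosomes 13 and 3 thus showed no difference in response beyond the software's error. A difference within these ranges could not be told from 0 by that error.

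Each of the 3 detected members is measured by 2 probes, and each probe by 8 spots, so the ratios could also be taken probe by probe. At 2 h, 5 of the 6 probes lay below 0 by the mean of their spots, and 4 of 6 by the probe signal of the software. The probes of miR-15a both gave -0.03 (SE over spots 0.04 and 0.02), those of miR-15b gave -0.02 (0.05) and 0.09 (0.02), and those of miR-16 gave -0.08 (0.03) and -0.14 (0.02). The second probe of miR-16, at 0.910-fold, was the only one whose scaled spots did not overlap between the berberine and control arrays, with outlying spots left out. At 4 h the 6 probes lay above 0, between 0.09 and 0.17, and with median scaling all 6 lay below 0, between -0.08 and -0.01. Spots of 1 array share its RNA, labelling and hybridization, and their spread says nothing of the spread between cultures.

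The probes of a member should give 1 ratio, and their difference is a second measure of error, taken here from the probe signals of the software and not from the spots. At 2 h the probes differed by 0.0017 for miR-15a, 0.11 for miR-15b and 0.057 for miR-16, beside a median of 0.067 over 145 miRNAs. At 4 h they differed by 0.026, 0.075 and 0.046, beside 0.065 over 153 miRNAs. The widest gap within the family was between the control arrays, where the probes of miR-15b gave -0.08 and 0.10, a larger difference than in 82.9% of 152 miRNAs. The near 0 ratio of miR-15b between controls was thus the mean of probes that differed by 0.18.

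**Figure D3:**
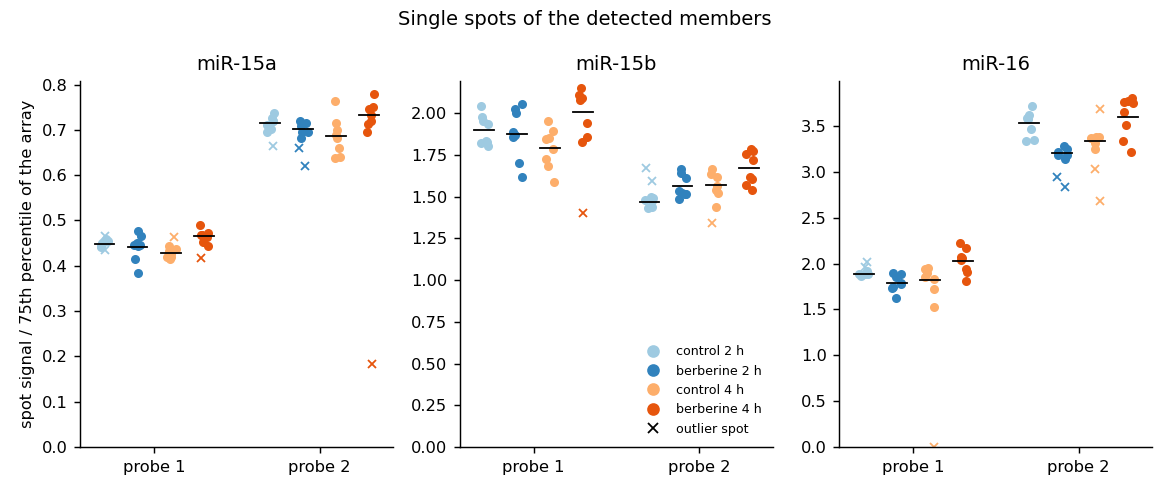
Intensity of single spots divided by the 75th percentile of the array (linear axis from 0, its own scale for each member) for both probes of miR-15a, miR-15b and miR-16 on each array. Crosses are spots marked as outliers and bars are means of the other spots. The spots of the berberine and control arrays at 2 h overlap for 5 of the 6 probes, and the second probe of miR-16 sits lower on the berberine 2 h array, at 0.910-fold.

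The scaled levels of the detected members varied little over the 4 arrays. Their SD on the log2 scale was 0.04 for miR-15a, 0.05 for miR-15b and 0.06 for miR-16, beside a median of 0.12 over the 197 miRNAs. The SD was smaller in 4.06%, 14.2% and 19.3% of the 197 miRNAs. Brighter miRNAs vary less, and among the 98 brighter ones, with a median SD of 0.09, the shares were 6.12%, 20.4% and 27.6%. No SD was taken with median scaling. There the log2 ratios between the controls were 0.15 for miR-15a, 0.21 for miR-15b and 0.14 for miR-16, in place of -0.06, 0.00 and -0.07. For miR-103 and miR-107, whose 5′ ends hold the same letters shifted by 1 base and which are known for a part in insulin signalling in liver, the SD was 0.04 and 0.05. Their berberine ratios were -0.03 and 0.04 at 2 h and 0.09 and 0.11 at 4 h, so they lay in the same range as the family. miR-646, which begins with a related 5′ end, was not detected on any array.

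The miRNAs whose course over the 4 arrays was nearest to that of miR-16, by the root mean square difference of scaled log2 levels after each was centred on its own mean, were miR-146b-5p (0.0091), miR-429 (0.011) and miR-224 (0.014). By the same measure miR-15a was at rank 29 of 196 (0.040) and miR-15b at rank 44 (0.052), beside miR-103 at rank 27 (0.039), miR-107 at rank 38 (0.050) and a median of 0.099. These differences are over 4 arrays only and are smaller than the error of a ratio, so the ranks are a description of these arrays.

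**Figure D4:**
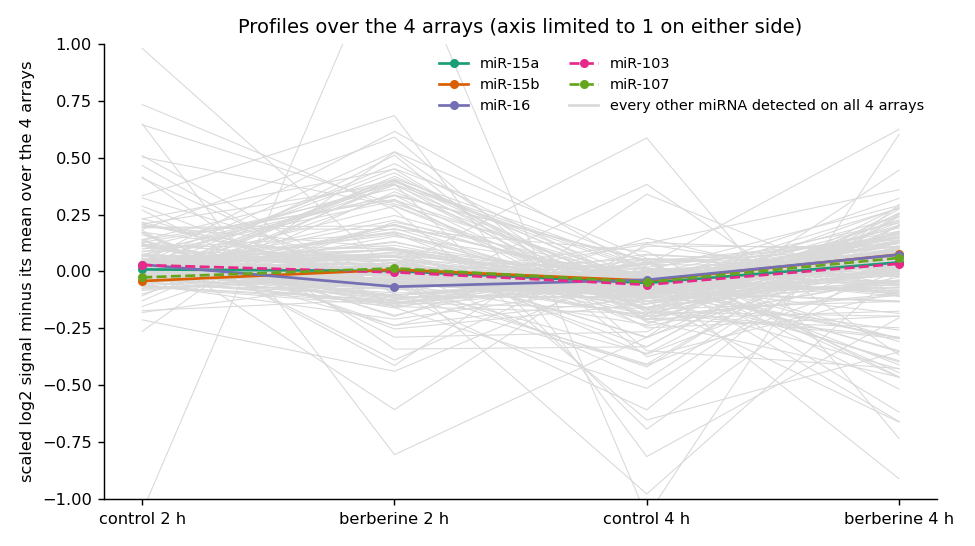
Scaled log2 level minus its mean over the 4 arrays for the 3 detected members (solid lines) and for miR-103 and miR-107 (dashed lines), with grey lines for the other miRNAs detected on all 4 arrays and an axis that ends at 1 on either side. The detected members move within 0.14 on the log2 scale, the whole range of miR-16 being the widest.

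miR-195, the member nearest to miR-16 in sequence and made with miR-497 on chromosome 17, was near the limit of detection. Its total signal was 4.34 ± 1.20 on the control 2 h array and 4.62 ± 1.27 on the berberine 4 h array, and it was not detected on the others. Those 2 arrays were also the brightest by the 75th percentile, at 243 and 297, and whether this had a part was not tested. Detection rested on its first probe, which stood at 3.61, 1.37, 2.43 and 3.63 errors on the control 2 h, berberine 2 h, control 4 h and berberine 4 h arrays. With both probes summed whether detected or not, its signal was 5.27 ± 1.65, 1.88 ± 2.24, 4.71 ± 2.13 and 6.38 ± 1.75. The errors are too large for these 4 values to be ordered. No ratio was taken, since at each time 1 of the 2 arrays gave no detected signal, and its level was not distinguishable between berberine and control.

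miR-424, miR-497 and miR-503 had no probe above its limit of detection. Over their 7 probes and 4 arrays, the 28 probe values ran from -1.31 to 3.59, with 15 of them below 0. The highest value in units of its own error was 2.18, for the second probe of miR-497 on the berberine 2 h array, and 0 values passed 3 errors. Of their 192 spots, 5 were well above background. The limit of 3 errors was 2.10 to 4.94 for a single probe, and a probe signal below its limit was not called detected. The other miRNAs of the X chromosome cluster that holds miR-424 and miR-503 were likewise not measured above the limit, with 0 of 5 detected on any array.

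The passenger strands of the same hairpins were fixed as a list of 7 names. Of these, miR-16-2* was detected on all 4 arrays, miR-15a* and miR-15b* on some, and 4 on none. miR-16-2*, from the SMC4 locus, was at 5.47 ± 0.79 without and 2.52 ± 0.83 with berberine at 2 h and at 5.66 ± 0.93 and 5.48 ± 0.81 at 4 h. Its scaled log2 ratio was -0.59 (SE 0.52) at 2 h and -0.45 (SE 0.32) at 4 h, both with a 95% range that includes 0. The ratio at 2 h turned to 0.35 with another background correction and to 0.04 with the mean of all probes. Without scaling the ratios were -1.12 at 2 h and -0.05 at 4 h. miR-15b*, from the same locus, was at 3.23 ± 0.65 on the control array and undetected with berberine at 2 h, and at 3.79 ± 0.83 and 4.21 ± 0.73 at 4 h (log2 ratio -0.25, SE 0.40, and 0.15 without scaling). miR-15a*, from the DLEU2 locus, was at 2.16 ± 0.60 and undetected at 2 h, and at 2.50 ± 0.78 and 2.25 ± 0.63 at 4 h (log2 ratio -0.56, SE 0.61, and -0.16 without scaling). The berberine 2 h array was also the dimmest of the 4. With all probes summed whether detected or not, miR-15b* was at 3.99 ± 1.17 without and 3.89 ± 1.59 with berberine at 2 h, miR-15a* at 2.60 ± 1.15 and 1.73 ± 1.59, and miR-16-2* at 7.18 ± 1.26 and 5.15 ± 1.61. The missing detection of miR-15b* on that array thus went with a larger error and a nearly equal sum. Ratios of the passenger strands had larger errors than those of the guide strands.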

How the data were processed

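Feature Extraction 10.7.3.1 files deposited by the authors give an intensity per spot, per probe and per miRNA, background-subtracted and not scaled between arrays. The authors also deposited a table of their own berberine over control ratios at each time, which was not used. The software writes a constant for an undetected miRNA, and such values gave no ratio. The members, lists and tests were chosen with earlier results of these data known. Named miRNAs were the 7 members, the fixed lists and the 3 miRNAs nearest to miR-16.

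Total signals were taken as log2 minus the array's 75th percentile, which was computed from the 197 human miRNAs that were detected on every array. The SE of a ratio was propagated from the deposited signal errors, and 95% ranges assume a normal error. The 2-fold threshold follows the paper. A model with terms for treatment and time was fitted by limma 3.58.1 (R 4.3.3), tested on simulated data first, and p-values were adjusted by Benjamini-Hochberg over the 197. Spot SEs were taken over the spots of a probe without outliers. Other scalings, quantile normalization, normexp with an offset of 50, other probe summaries and leaving out each array were tried. The lowest detected signal was 1.79 to 2.52 beside a local background of 24 to 28, with 199 to 242 miRNAs detected. Precision is limited by the number of arrays. Sequences and genes came from RefSeq on GRCh38.p14, while the array files name hg18, so no array coordinates were used. No source says whether the arrays came from separate cultures, so p-values measure only the spread between these arrays, which may be technical. In the fit with the time term that spread is how far the berberine ratios at 2 h and 4 h differ.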

Additional observations from a re-analysis of the deposited data

Results flagged for a closer look

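The berberine ratio of miR-15a was below 0 at 2 h and above 0 at 4 h, with a change of 0.10 on the log2 scale (SE 0.21). The ratio of miR-16 likewise lay on opposite sides of 0 at the 2 times, with a change of 0.21 (SE 0.21). The sign change of both was lost with median scaling (-0.021 and -0.081 for miR-15a, -0.11 and -0.061 for miR-16), with quantile normalization (0.037 and 0.022, -0.054 and -0.070) and with the brightest probe (-0.012 and -0.024, -0.12 and -0.011). With normexp it was turned for miR-15a (0.015 and -0.035). With 1 array per condition the difference was not tested, and the 95% range of each change included 0.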

How the results depend on the processing

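Across 376 values recomputed under the alternatives, 299 moved by less than their error or stayed on the same side of the threshold. Some of these were fixed in advance, so the count does not measure stability. The members' median minus that of all miRNAs cannot change under another constant per array. The mean of all probes and the same probes on all arrays gave nearly the main ratios of the 3 members again. Without scaling, the members' median log2 ratio was -0.53 at 2 h and 0.51 at 4 h. With median scaling it was -0.061 at 4 h and 0.15 between the controls. With the percentile over all 851 miRNAs it was 5.10 at 2 h, where 3 members passed 2-fold and that percentile of the berberine array fell on the constant given to undetected miRNAs. It was -0.29 at 4 h and 0.44 between the controls, and the cause of these was not tested. With normexp, the members' median minus that of all miRNAs was -0.20 at 2 h and 0.24 at 4 h, and the cause was not tested. In limma, the difference over both times turned below 0 for miR-15a without scaling (-0.021), with median scaling (-0.051), with the brightest probe (-0.018) and with normexp (-0.0099). It did so for miR-15b with median scaling (-0.0099) and quantile normalization (-0.042). For miR-16 it did so without scaling (-0.056), with median scaling (-0.086), quantile normalization (-0.062), the brightest probe (-0.066) and normexp (-0.045). Leaving out each array gave -0.0071 to 0.091 for miR-15a, 0.049 to 0.12 for miR-15b and -0.097 to 0.11 for miR-16, the lowest for miR-15a and miR-16 without either 4 h array. With the time term kept, leaving out an array only returns the ratio at the time that keeps both arrays, as given above. The ranges also include fits without the time point, added after the data were seen. Under the 15 alternatives with an adjusted p, limma called 0 to 2 of all miRNAs tested, so that a count of 0 members, with adjusted p from 0.444 to 1, says nothing of their stability. No paired analysis was possible by replicate number, because each group holds 1 array and all carry the same number. The limma fit pairs the arrays by time point through its time term. Ratios of dim miRNAs are limited by signals close to 3 times their error.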
